A study of Mus musculus with 96 samples.

Results

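The neuropeptide precursor genes Penk, Tac1, Pdyn, Sst, Npy, Pmch, Cartpt, Vip, Cck and Nts were followed in mice given an antipsychotic drug. They are 10 of the 19505 genes with a symbol on the mouse Clariom S array, and were taken by symbol, as a list drawn up with earlier results of these data known. Each was read by 1 transcript cluster, that is, 1 set of probes summarised to a single log2 intensity. The striatum was the main tissue, and the liver, the pancreas and the visceral fat of the gonadal pads came from the same animals. The 24 C57BL/6JOlaHsd mice, bought at 6 weeks of age, received a subcutaneous injection every day for 28 days and were killed 1 h after the last. The olanzapine group received 3.5 mg/kg, the risperidone group 1 mg/kg, and the vehicle group saline with 5% DMSO and 5% Tween 20. Each group held 4 males and 4 females, and each of the 4 tissues of every mouse was put on its own array, 96 in total. The drugs were given at unlike doses, so a difference between them is a difference between those treatments as given. Mice are named by group, sex letter and number, as in olanzapine F26.

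Neuropeptides are cut from larger precursor proteins in the secretory pathway, stored in dense core vesicles and released to act on G protein-coupled receptors. The main output cells of the striatum, the medium spiny projection neurons, carry precursors that differ with their pathway: neurons with D2 dopamine receptors make preproenkephalin (Penk), whereas those with D1 receptors make the substance P precursor (Tac1) and prodynorphin (Pdyn). Both classes are known to adjust these transcripts to dopamine receptor signalling, which risperidone and olanzapine block at the D2 receptor. Somatostatin (Sst) and neuropeptide Y (Npy) belong to a class of striatal and cortical interneurons, vasoactive intestinal peptide (Vip) and cholecystokinin (Cck) largely to the cortex, and melanin-concentrating hormone (Pmch) to a cell group of the lateral hypothalamus.

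The 250 bases before the annotated start of 9 of the 10 genes were found in the RefSeq promoter table (build GRCm38.p6). Penk is not in that table. Those of the genes on which the results below turn most are printed, 5′ to 3′ on the strand of the gene, so that they can be set beside the values. Capitals mark 4 short motifs, searched on both strands, none of which contains another: the cyclic AMP response element TGACGTCA, its variant TGCGTCA, the AP-1 site TGAGTCA and the TATA box TATAAA. Tac1 lies on the plus strand of chromosome 6 (chr6:7554811-7555060), Pmch on the plus strand of chromosome 10 (chr10:88090822-88091071), Nts on the minus strand of chromosome 10 (chr10:102490419-102490668) and Sst on the minus strand of chromosome 16 (chr16:23890845-23891094).
Tac1: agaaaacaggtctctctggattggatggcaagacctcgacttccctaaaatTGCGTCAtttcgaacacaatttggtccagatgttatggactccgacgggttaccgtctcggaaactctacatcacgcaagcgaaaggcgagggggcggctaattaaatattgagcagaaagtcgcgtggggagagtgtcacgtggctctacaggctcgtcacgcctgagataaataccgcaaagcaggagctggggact
Pmch: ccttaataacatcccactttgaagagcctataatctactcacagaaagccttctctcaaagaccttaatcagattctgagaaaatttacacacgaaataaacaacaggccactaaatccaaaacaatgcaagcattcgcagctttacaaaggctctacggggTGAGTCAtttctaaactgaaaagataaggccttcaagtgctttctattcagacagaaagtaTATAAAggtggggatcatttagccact
Nts: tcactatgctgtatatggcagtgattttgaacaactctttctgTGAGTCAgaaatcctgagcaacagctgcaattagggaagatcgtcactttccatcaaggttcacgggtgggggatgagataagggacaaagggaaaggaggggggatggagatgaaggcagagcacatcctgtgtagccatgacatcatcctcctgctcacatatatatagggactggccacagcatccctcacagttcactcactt
Sst: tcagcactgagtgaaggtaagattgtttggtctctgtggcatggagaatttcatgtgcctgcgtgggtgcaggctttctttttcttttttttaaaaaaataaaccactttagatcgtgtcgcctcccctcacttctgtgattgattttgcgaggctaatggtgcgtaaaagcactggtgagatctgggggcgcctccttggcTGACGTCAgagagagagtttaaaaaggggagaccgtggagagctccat

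The TGACGTCA element began 48 bases before the start in Sst and 112 bases before it in Cartpt, and 1.55% of all 32851 windows of this length held it. The variant TGCGTCA stood 199 bases before the start of Tac1 and 49 bases before that of Cck, with a share of 1.75% over all windows. TGAGTCA was found 88 bases before the start of Pmch and 207 bases before that of Nts, against 4.46% of all windows. TATAAA began 27 bases before the start of Pmch and occurred 3 times in Vip, and 12.4% of the windows held it. The windows of Pdyn and Npy held none of the 4. These matches are letters in a sequence and were not measured as binding sites.

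The striatal arrays were alike in their overall distribution, with medians between 7.58 and 7.69, and each array had a median correlation of 0.975 to 0.985 with the others. In the pancreas this correlation lay between 0.685 and 0.856 and in the fat between 0.798 and 0.952, so values there vary more between mice. In the striatal samples the projection neuron markers Ppp1r1b (DARPP-32) and Pde10a had middle values of 15.02 and 16.83. The samples also differed in markers of neighbouring regions: the mean of 9 thalamic markers ran from 7.541 to 12.422 over the 24 mice, and olanzapine F26 had both the highest thalamic mean and the lowest projection neuron mean, 11.188. The markers of the other tissues were likewise high, with middle values of 19.87 for Alb in the liver, 19.88 for Cela2a in the pancreas and 17.97 for Adipoq in the fat, where 4 male samples also held epididymal genes at high levels. The 1091 olfactory receptor genes on the array, which these tissues are not expected to use, served as the range of dim probes. In the striatum their 5th and 95th percentiles were 4.46 and 7.15.

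The question in the striatum was whether either drug shifted the precursors against vehicle, and whether the drug groups differed. Against vehicle none of the 10 genes was called with either drug. The olanzapine and risperidone groups differed in 3: Penk and Tac1 were lower and Pmch was higher in the olanzapine group. Called means an adjusted p below 0.05 in limma, with Benjamini-Hochberg adjustment over all 19505 genes. For olanzapine against risperidone 4.86% of all genes were called, and for either drug against vehicle 0%. All 3 comparisons share groups, so they are not independent of each other. In bulk tissue, fewer cells of a type and less RNA per cell cannot be told apart.

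**Figure D1:**
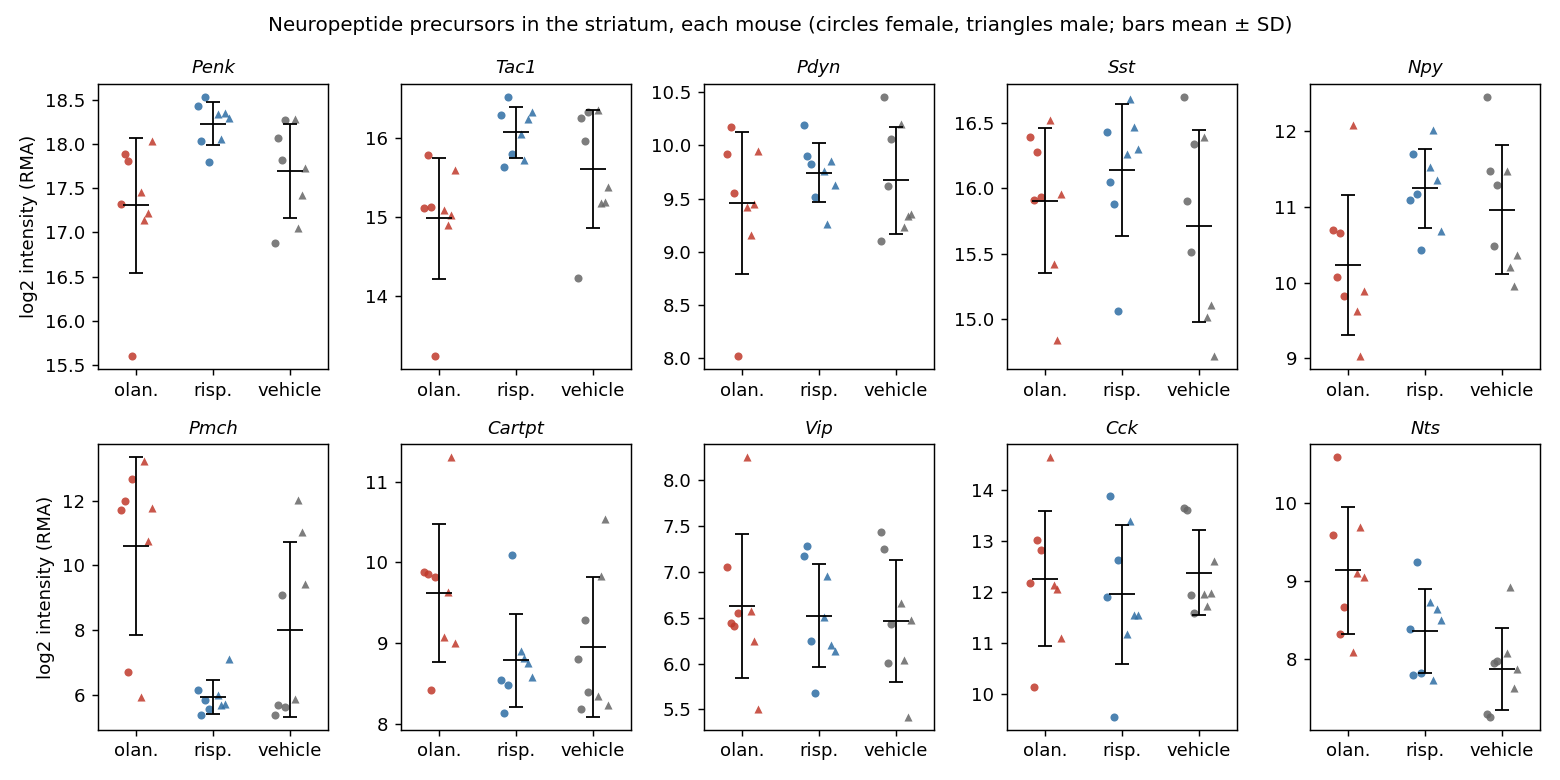
Log2 intensity (y axis) of the 10 precursor genes in the striatum of each mouse, with olanzapine, risperidone and vehicle from left to right, circles for females, triangles for males, and bars for the mean ± SD of 8 mice. Penk and Tac1 sat lowest in the olanzapine group, where F26 reached 15.6 and 13.24, and all 8 risperidone mice had Pmch at or under 7.11, within the range of dim probes.

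Penk, the enkephalin precursor, lay between 15.6 and 18.04 in the olanzapine group (median 17.39), between 17.8 and 18.54 in the risperidone group (median 18.32) and between 16.88 and 18.29 in the vehicle group (median 17.78). The risperidone mice were thus the narrowest and highest group, and 5 of 8 olanzapine mice lay below the lowest of them. Olanzapine against risperidone gave a log2 fold change of -0.92 (standard error 0.26, limma, adjusted p = 0.0339). Against vehicle it was -0.38 with olanzapine (adjusted p = 0.632) and 0.54 with risperidone (standard error 0.26, adjusted p = 0.913), neither of which passed in limma. For risperidone against vehicle, Penk was 1 of 2 precursors with an unadjusted p under 0.05, a level that 5.4% of all genes reached.

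Tac1, which encodes substance P and neurokinin A, followed the same order. Its values ran from 13.24 to 15.78 in the olanzapine group (median 15.10), from 15.63 to 16.52 in the risperidone group (median 16.15) and from 14.22 to 16.35 in the vehicle group (median 15.67). Of the 8 olanzapine mice, 7 lay below the lowest risperidone mouse, and the vehicle mice overlapped both. The log2 fold change between the drugs was -1.09 (standard error 0.29, limma, adjusted p = 0.0298), that against vehicle -0.63 with olanzapine (adjusted p = 0.452) and 0.47 with risperidone (adjusted p = 0.915). The calls of Penk and Tac1 were lost when olanzapine F26, the lowest mouse in both, was left out: the fold change was then -0.67 for Penk (limma, adjusted p = 0.0639) and -0.84 for Tac1 (adjusted p = 0.0658). Leaving out any of several other single mice of these drug groups also ended a call.

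Pdyn, the dynorphin precursor of the same D1 neurons as Tac1, did not pass in any comparison. It lay between 8.02 and 10.17 in the olanzapine group (median 9.50), between 9.26 and 10.19 in the risperidone group (median 9.80) and between 9.1 and 10.46 in the vehicle group (median 9.49), and the groups overlapped throughout. For olanzapine against risperidone the log2 fold change was -0.29, with a 95% interval from -0.77 to 0.19. Against vehicle it was -0.22 with olanzapine (interval -0.70 to 0.26) and 0.07 with risperidone (interval -0.41 to 0.55).

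The 3 precursors of the projection neurons varied together between mice. Over 24 mice, Pearson's r was 0.956 for Penk with Tac1 (Spearman's rho 0.912), 0.826 for Penk with Pdyn (rho 0.711) and 0.833 for Tac1 with Pdyn (rho 0.709), with permutation p-values adjusted over 54 tests of 0.00027, 0.00027 and 0.00036. Penk and Tac1 kept r at 0.972 within the olanzapine group, 0.866 within the risperidone group and 0.947 within the vehicle group, and at 0.91 without the 2 mice farthest from the median of Penk. With the 2 farthest mice left out in the same way, r was 0.618 for Penk with Pdyn and 0.657 for Tac1 with Pdyn. For Tac1 with Pdyn, r was 0.968 with olanzapine, 0.457 with risperidone and 0.888 with vehicle. The rank correlations of all 3 pairs also passed (permutation tests, adjusted p at most 0.00283).

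Other genes of these neurons moved with them. The mean of 10 projection neuron markers, such as Drd1, Drd2, Ppp1r1b and Rgs9, ran from 11.188 to 14.197 in the olanzapine group, from 14.222 to 15.413 in the risperidone group and from 13.068 to 15.363 in the vehicle group, so the drug groups did not overlap. The means of 13.317 in the olanzapine group and 14.885 in the risperidone group differed by -1.57 (exact two-sided permutation test, p = 0.000155, the smallest possible with 8 against 8, adjusted p = 0.0021 over 27 marker comparisons), and all 10 markers were called lower, where 4.86% of all genes were called. Against the vehicle mean of 14.337, the olanzapine mean differed by -1.02 (exact permutation test, adjusted p = 0.0881) and the risperidone mean by 0.547 (exact permutation test, adjusted p = 0.183). Across the mice, this marker mean had an r of 0.955 with Penk, 0.923 with Tac1 and 0.753 with Pdyn (permutation tests, adjusted p = 0.00011, 0.00011 and 0.000528, rho 0.932, 0.931 and 0.63). For Pdyn, r was 0.54 without the 2 farthest mice and 0.278 within the risperidone group. With this marker mean as a covariate, the log2 fold change between the drugs was 0.17 for Penk (limma, adjusted p = 0.956) and 0.08 for Tac1 (adjusted p = 0.99), and the direction turned in both. In that fit 0% of all genes were called between the drugs. Since the drug groups did not overlap in the covariate, the fit cannot separate treatment from this marker mean.

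**Figure D2:**
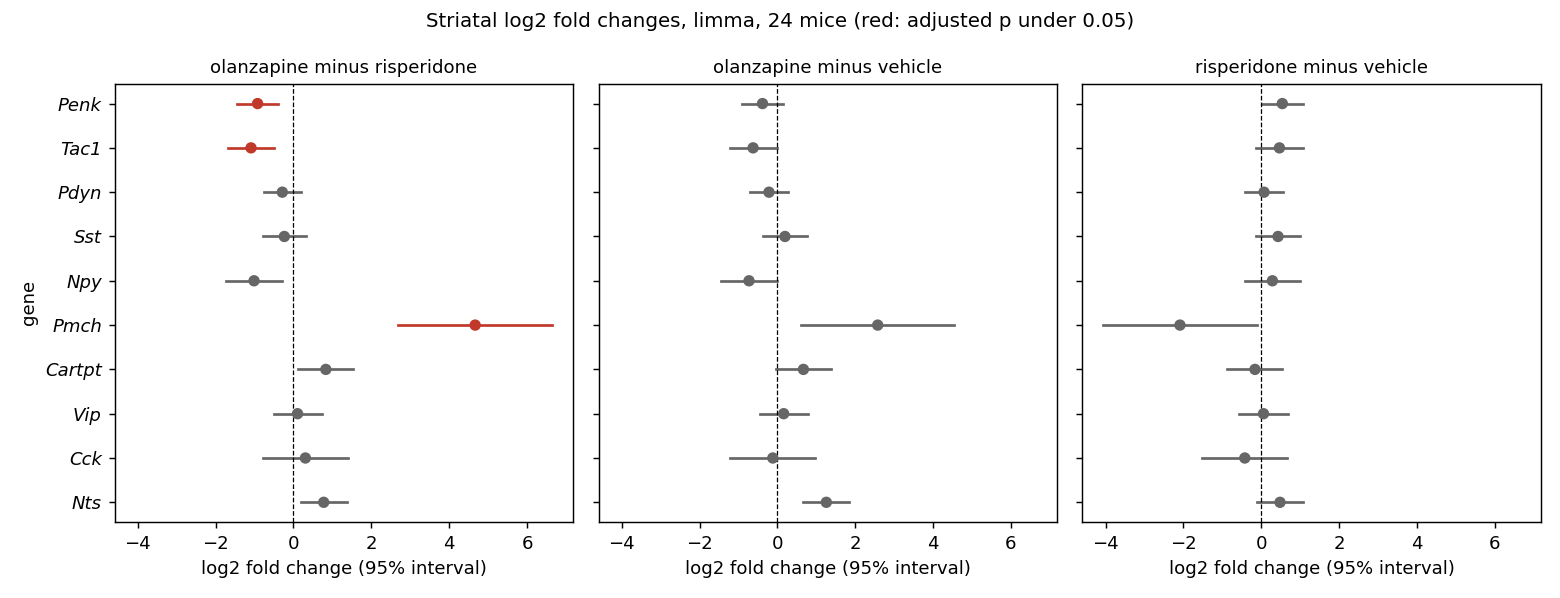
Log2 fold change (x axis, points, with 95% intervals as lines) of each precursor gene (y axis) in the striatum for the 3 comparisons, from limma over 24 mice. Red marks an adjusted p under 0.05, which Penk (-0.92), Tac1 (-1.09) and Pmch (4.67) reached for olanzapine against risperidone. With the risperidone group set to the upper end of the dim range, the difference of Pmch is 3.45.

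Pmch, the precursor of melanin-concentrating hormone, showed the widest spread of the 10. Its values ran from 5.92 to 13.22 in the olanzapine group (median 11.75), from 5.37 to 7.11 in the risperidone group (median 5.79) and from 5.38 to 12.01 in the vehicle group (median 7.49). The mice fell into a low set of 14, at 5.37 to 7.11 and so within the dim range, and a high set of 10, at 9.09 to 13.22. The high set held 6 olanzapine mice, 0 risperidone mice and 4 vehicle mice, and the low set 2, 8 and 4. The log2 fold change of olanzapine against risperidone was 4.67 (standard error 0.96, limma, adjusted p = 0.0109), with 6 of 8 olanzapine mice above every risperidone mouse. Since all 8 risperidone mice lay under 7.15, the upper end of the dim range, their level is known only as a bound. Set against that upper end, the mean of the olanzapine group was higher by 3.45 on the log2 scale. That mean takes 2 dim olanzapine mice as measured, so the value is not a strict lower limit. The bound on the risperidone mice applies to every fold change of Pmch that involves their group. For olanzapine against vehicle, the 2 olanzapine and 4 vehicle mice of the low set were dim too and entered as measured. That fold change averages over the low and the high set.

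Against vehicle, the log2 fold change of Pmch was 2.58 with olanzapine (limma, adjusted p = 0.332) and -2.09 with risperidone (adjusted p = 0.913), and neither passed. Without olanzapine M9, whose value of 5.92 was the lowest of its group, the fold change against vehicle was 3.36 (limma, adjusted p = 0.0462). In that fit 1.04% of all genes were called, against 0% with all mice. Between the drugs the call held with each mouse left out in turn (fold changes 4.28 to 5.45). It was lost in males alone, at 4.29 (limma, adjusted p = 0.247), and held in females alone, at 5.05 (adjusted p = 0.0385). The difference of the drug effect between the sexes was not called for olanzapine against vehicle (limma, interaction -3.50, standard error 1.85, adjusted p = 0.811). Over all genes, 0 were called for that interaction. No such interaction was fitted for olanzapine against risperidone, so whether that difference depends on sex was not tested.

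Genes of other hypothalamic neurons moved with Pmch. The gene whose values were most like those of Pmch, after treatment and sex were fitted out over 24 mice, was Hcrt (r = 0.941), the precursor of the orexins, which are made in neighbouring cells of the lateral hypothalamus. Hcrt ran from 6.06 to 9.96 in the olanzapine group (median 8.63), from 6.05 to 6.75 in the risperidone group (median 6.60) and from 6.05 to 8.65 in the vehicle group (median 6.66), so that all risperidone mice lay in the dim range. Within the high set of 10 mice, Pmch had an r of 0.928 with the mean of 11 hypothalamic markers (rho 0.879, permutation test, p = 5e-05, adjusted p = 0.000412), and 0.857 without the 2 mice farthest from the median of Pmch. Within the low set of 14 mice, r was 0.046.

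That marker mean was 7.071 in the olanzapine group, 6.217 in the risperidone group and 6.467 in the vehicle group. All 3 means lay under 7.15, the upper end of the dim range. The brightest genes of the list, Oxt, Hcrt and Hdc, averaged 7.75, 7.27 and 7.24 over the striatal samples. Differences in this mean are therefore those of a list close to background. The difference of 0.853 between the drugs passed (exact permutation test, adjusted p = 0.0189), and 4 of the 11 markers were called higher, where 4.86% of all genes were called. The 9 thalamic markers had a mean of 11.25 in the olanzapine group, against 8.914 in the risperidone group, a difference of 2.34 (exact permutation test, adjusted p = 0.0364). Of these 9, 3 were called higher, beside the same 4.86% of all genes. The 6 septal and pallidal markers had a mean of 8.947 in the olanzapine group, against 8.436 in the risperidone group (exact permutation test, adjusted p = 0.026). Only 1 of these 6 was called higher, and their median log2 fold change was 0.07, so the difference in the mean does not describe the list as a whole. With the thalamic marker mean as a covariate, added after the values were seen, the log2 fold change of Pmch between the drugs was 2.64 (limma, adjusted p = 0.251), that of Penk -0.67 (adjusted p = 0.383) and that of Tac1 -0.85 (adjusted p = 0.338). With the projection neuron mean it was 2.24 for Pmch (limma, adjusted p = 0.942). How far the makeup of the dissected samples and the treatment each bear on these genes was not tested. These fits cannot settle it, since both marker means differed between the drug groups.

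**Figure D3:**
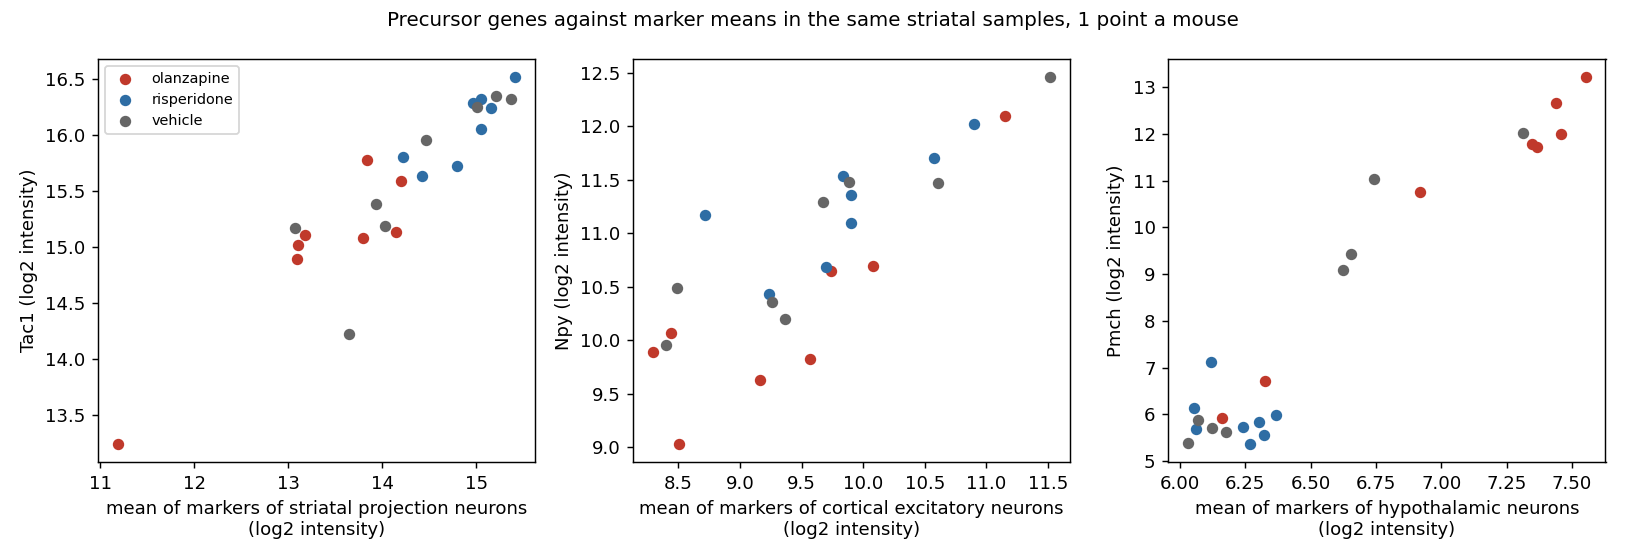
Log2 intensity of Tac1, Npy and Pmch (y axes) against the mean log2 intensity of markers of striatal projection neurons, cortical excitatory neurons and hypothalamic neurons (x axes), 1 point a mouse, coloured by treatment. Tac1 and Npy rise along their marker means (r = 0.923 and 0.83), and the 10 mice with high Pmch (9.09 to 13.22) lie to the right of the other 14.

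Nts, the neurotensin precursor, had the lowest p of the 10 genes against vehicle but was not called. It ran from 8.1 to 10.58 in the olanzapine group (median 9.08), from 7.74 to 9.25 in the risperidone group (median 8.45) and from 7.27 to 8.93 in the vehicle group (median 7.92). All 8 olanzapine mice lay above the vehicle median, and 5 of them above every vehicle mouse. Against vehicle the log2 fold change was 1.26 with olanzapine (standard error 0.29, limma, unadjusted p = 0.000173, adjusted p = 0.199) and 0.48 with risperidone (adjusted p = 0.915). Tac1, Npy and Pmch were the other precursors with an unadjusted p under 0.05 for olanzapine against vehicle, 4 of 10 in all, where 10.5% of all genes reached that level. Nts passed when vehicle M3 (fold change 1.41, limma, adjusted p = 0.0285) or olanzapine M9 (1.42, adjusted p = 0.0257) was left out. In those fits 0.595% and 1.04% of all genes were called, against 0% with all mice. Between the drugs its fold change was 0.78 (adjusted p = 0.122).

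Among the precursors of interneurons, Npy was lower on average in the olanzapine group without passing the test. Npy lay between 9.03 and 12.09 in the olanzapine group (median 9.98), between 10.43 and 12.02 in the risperidone group (median 11.27) and between 9.95 and 12.46 in the vehicle group (median 10.89). Of the 8 olanzapine mice, 5 were below every risperidone mouse, while M9 was above all of them. The log2 fold change was -1.01 against risperidone (limma, adjusted p = 0.0923) and -0.73 against vehicle (adjusted p = 0.463). With the mean of cortical markers as a covariate, added after the values were seen, it was -0.67 against risperidone (limma, adjusted p = 0.0483). In that fit 4 of the 10 precursors were called, where 4.71% of all genes were called. Without the covariate, Npy, Cartpt and Nts reached an unadjusted p under 0.05 for olanzapine against risperidone beside the 3 called genes, 6 of 10, where 19.1% of all genes did.

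Sst, which shares a class of interneurons with Npy, ran from 14.84 to 16.52 in the olanzapine group (median 15.95), from 15.06 to 16.68 in the risperidone group (median 16.28) and from 14.72 to 16.7 in the vehicle group (median 15.71), with wide overlap. Its log2 fold changes were -0.24 between olanzapine and risperidone (95% interval -0.79 to 0.32), 0.20 for olanzapine against vehicle (-0.36 to 0.75) and 0.43 for risperidone against vehicle (-0.12 to 0.98). In males Sst averaged 16.43 ± 0.19 with risperidone and 15.31 ± 0.74 with vehicle (SD, n = 4 each). In females it averaged 15.86 ± 0.58 with risperidone and 16.11 ± 0.52 with vehicle (SD, n = 4 each). The interaction of 1.38 was not called (standard error 0.48, limma, unadjusted p = 0.00867, adjusted p = 0.852). None of the 10 precursors differed between males and females over all groups, where 0.39% of all genes were called. No interaction of sex and treatment was called for any of them in limma, as for all other genes with either drug. The absence of calls therefore does not set the precursors apart. Among the 10, the interaction of Sst with risperidone alone had an unadjusted p under 0.05 (limma). Of 19505 genes, 551 reached that level with a positive interaction with risperidone and 576 with a negative one.

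Cartpt, the precursor of the cocaine- and amphetamine-regulated transcript peptides, ran from 8.42 to 11.3 in the olanzapine group (median 9.73), from 8.14 to 10.09 in the risperidone group (median 8.67) and from 8.18 to 10.54 in the vehicle group (median 8.60). Its log2 fold change was 0.83 for olanzapine against risperidone (limma, adjusted p = 0.174), 0.67 for olanzapine against vehicle (adjusted p = 0.51) and -0.16 for risperidone against vehicle (adjusted p = 0.967). Vip was dim: its group means lay above those of 81.7% to 86.3% of the olfactory receptor genes. It ran from 5.5 to 8.25 in the olanzapine group, from 5.68 to 7.28 in the risperidone group and from 5.42 to 7.44 in the vehicle group, with log2 fold changes of 0.11 between the drugs (95% interval -0.51 to 0.72), 0.16 for olanzapine against vehicle (-0.46 to 0.78) and 0.06 for risperidone against vehicle (-0.56 to 0.67). Cck, abundant in cortical neurons, ran from 10.15 to 14.64 in the olanzapine group, from 9.56 to 13.89 in the risperidone group and from 11.59 to 13.65 in the vehicle group. Its log2 fold changes were 0.31 between the drugs (standard error 0.53), -0.12 for olanzapine against vehicle (95% interval -1.21 to 0.98) and -0.42 for risperidone against vehicle (-1.52 to 0.67), intervals that leave room for sizeable shifts either way.

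Among the 4 interneuron and cortical precursors Sst, Npy, Vip and Cck, 4 of the 6 pairs were correlated. Over 24 mice, r was 0.733 for Sst with Npy, 0.655 for Npy with Vip, 0.625 for Vip with Cck and 0.549 for Sst with Vip (Spearman's rho 0.736, 0.61, 0.591 and 0.543), with permutation p-values adjusted over 54 tests of 0.00081, 0.0045, 0.00783 and 0.0278. Cck passed only with Vip, since r was 0.398 for Npy with Cck (rho 0.307, permutation test, adjusted p = 0.167) and 0.163 for Sst with Cck (rho 0.164, permutation test, adjusted p = 0.646). The rank correlations of the 4 pairs that passed also did so (permutation tests, adjusted p at most 0.0354), and r lay between 0.544 and 0.703 in these pairs without the 2 farthest mice. Within single treatment groups, r of Sst with Npy was 0.861 with olanzapine, 0.66 with risperidone and 0.911 with vehicle. The mean of 8 cortical excitatory markers, such as Slc17a7 and Neurod6, had an r of 0.83 with Npy, 0.825 with Vip, 0.721 with Cck and 0.655 with Sst (permutation tests, adjusted p = 0.00011, 0.00011, 0.000513 and 0.00274 over 66 tests, rho 0.834, 0.801, 0.582 and 0.744), and for Npy it was 0.856 within the olanzapine group, 0.718 within the risperidone group and 0.914 within the vehicle group. The same 4 genes went against the thalamic marker mean to unlike degrees, with r of -0.858 for Npy, -0.662 for Sst, -0.616 for Vip (permutation tests, adjusted p = 0.00011, 0.00274 and 0.00515) and -0.137 for Cck, which did not pass (permutation test, adjusted p = 0.707). Single mice differed in this respect. Olanzapine M9 had the highest Sst (16.52), Npy (12.09), Vip (8.25) and Cck (14.64) of its group with the lowest Pmch (5.92) and Nts (8.1), and its cortical mean was 11.149. Vehicle F1 likewise had the highest Sst (16.7), Npy (12.46), Vip (7.44) and Cck (13.65) of its group with the lowest Pmch (5.38), and a cortical mean of 11.519. Risperidone F23 had the lowest Sst (15.06), Npy (10.43) and Vip (5.68) of its group, but its Cck of 12.63 was above the group median of 11.73. In olanzapine F26, Npy was at 9.82, below the group median, and Cck at 12.82, above it.

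Over 24 mice, the pairs of Cartpt and of Nts with other precursors that passed by r were negative. Cartpt had an r of -0.682 with Npy, -0.548 with Penk and -0.538 with Sst (permutation tests, adjusted p = 0.00238, 0.0289 and 0.0289), and these were -0.616, -0.702 and -0.633 without the 2 farthest mice. For Sst with Cartpt the rank correlation was weaker (rho -0.321, permutation p = 0.125). Cartpt was positively correlated with the thalamic (r = 0.621, rho 0.541) and hypothalamic (r = 0.612, rho 0.599) marker means (permutation tests, adjusted p = 0.00561 and 0.0061), although within the olanzapine group r was 0.141 and 0.373. Nts was positively correlated with the hypothalamic (r = 0.675, rho 0.61) and the septal and pallidal (r = 0.617, rho 0.542) means (permutation tests, adjusted p = 0.00144 and 0.00515), but within the risperidone group r was 0.292 and -0.11. Nts was low where Cck was high, with an r of -0.65 over 24 mice (rho -0.594, permutation test, adjusted p = 0.00517), and of -0.857 within the olanzapine group, -0.966 within the risperidone group and -0.751 within the vehicle group. With Npy, Nts had an r of -0.55 (rho -0.49, permutation test of r, adjusted p = 0.0278). Within the risperidone group Nts rose with Penk (r = 0.88) and Tac1 (0.897), whereas over 24 mice r was -0.074 and -0.042. The choroid plexus markers were higher on average with risperidone, at 9.235, than with vehicle, at 7.923, without passing (exact permutation test, adjusted p = 0.102). Over 24 mice, their mean had an r between -0.192 and 0.085 with each of the 9 precursors other than Pmch. Within single treatment groups of 8 mice, r ran more widely, from -0.764 for Sst with vehicle to 0.524 for Pdyn with risperidone.

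**Figure D4:**
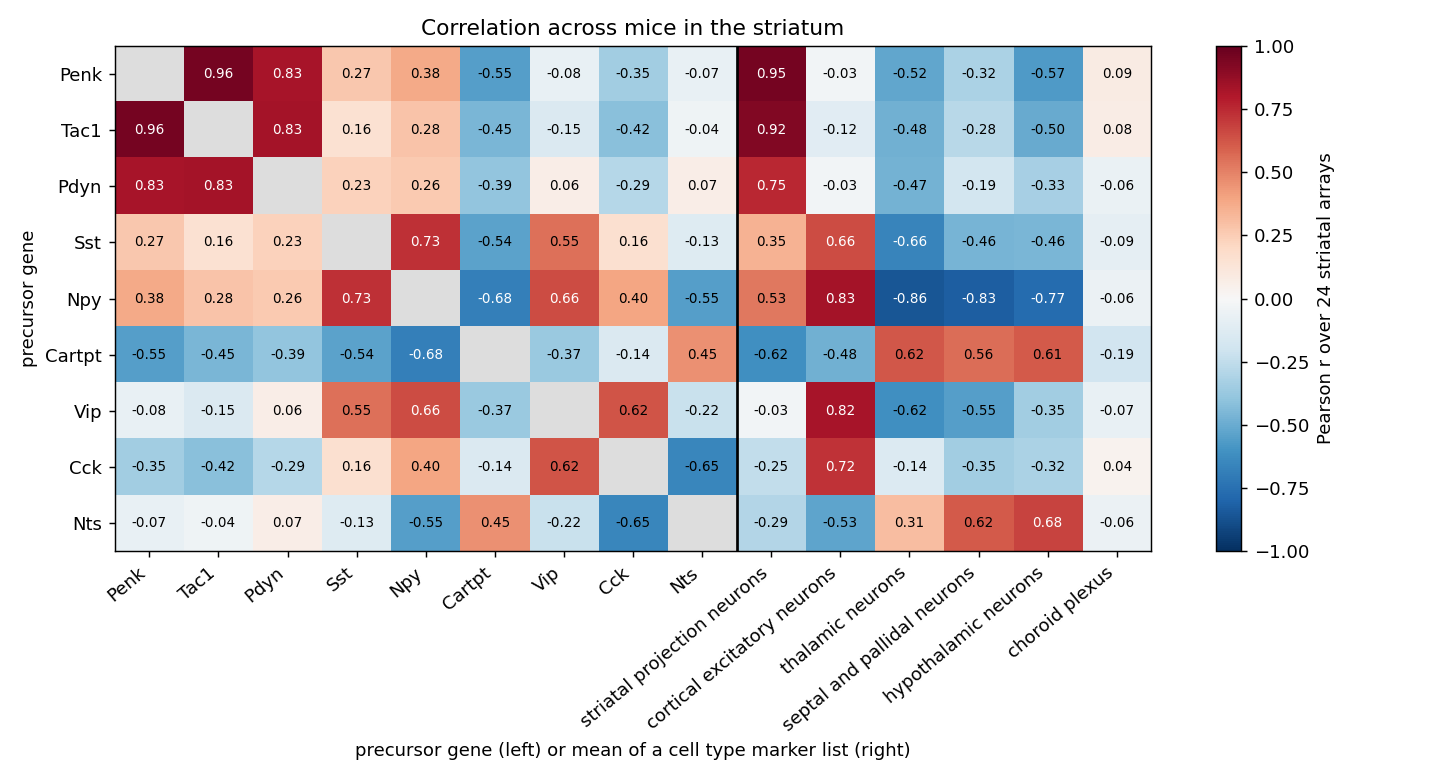
Pearson's r over 24 striatal arrays between precursor genes (left block) and between precursor genes (rows) and the means of cell type marker lists (right block), with red for positive and blue for negative values. Pmch is left out because its values fall into separate sets. Penk, Tac1 and Pdyn form one block (r from 0.826 to 0.956), and Npy runs with the cortical mean (0.83) and against the thalamic mean (-0.858).

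For each precursor, the array was searched for the genes most like it over the 24 striatal arrays, by r after treatment and sex were fitted out. Penk was nearest to Ppp1r1b (0.972), the D1 receptor gene Drd1 (0.97) and Rgs9 (0.967), a striatal regulator of G protein signalling. Tac1 was nearest to Penk (0.942), the glutamate receptor gene Grm5 (0.927) and Ppp1r7 (0.922), and Pdyn to the kinase gene Dclk3 (0.908), Penk (0.906) and Tac1 (0.903). Npy was nearest to Camk2a (0.965), a kinase of excitatory forebrain neurons, Hivep2 (0.954) and Nlk (0.943), and Sst to Mef2d (0.937), Shisa7 (0.928) and Wasf1 (0.924). After Hcrt, Pmch was nearest to the GABA receptor subunit gene Gabrq (0.922) and to Gpld1 (0.91). Cartpt was nearest to the vesicular monoamine transporter gene Slc18a2 (0.786), to Th (0.779), which encodes the rate-limiting enzyme of dopamine synthesis, and to Gpr107 (0.749). Vip was nearest to Tmem178 (0.907), Vxn (0.902) and 1110008P14Rik (0.896), Cck to Sprn (0.878), St8sia5 (0.868) and Efhd2 (0.861), and Nts to Dock11 (0.86), Baiap3 (0.836) and Acacb (0.81).

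The receptors, processing enzymes and peptidases of these peptides, with other precursors, came to 72 measured genes. None was called against vehicle with either drug, and at an unadjusted p under 0.05 there were 15 higher and 4 lower with olanzapine, and 1 higher and 4 lower with risperidone. These are 26.4% of the 72 genes with olanzapine, where 10.5% of all genes reached that level, and 6.94% with risperidone, near the 5.4% of all genes. Between olanzapine and risperidone 13 were called, 9 higher and 4 lower with olanzapine, which is 18.1%, where 4.86% of all genes were called. The median log2 fold change of all genes was -0.01 there.

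Of 4 opioid receptor genes, which bind enkephalin, dynorphin and nociceptin, 2 were higher and 1 was lower with olanzapine than with risperidone. The mu receptor gene Oprm1 ran from 9.95 to 13.07 in the olanzapine group, from 10.54 to 11.7 in the risperidone group and from 10.78 to 12.76 in the vehicle group, with a log2 fold change of 1.37 for olanzapine against risperidone (limma, adjusted p = 0.0235). The nociceptin receptor gene Oprl1 had a fold change of 1.08 (adjusted p = 0.0109) and the delta receptor gene Oprd1 of -0.67 (adjusted p = 0.0235). None of the 3 tachykinin, 5 somatostatin and 4 NPY receptor genes was called. Of 8 receptor genes for the other peptides, Adcyap1r1 (PACAP receptor, fold change 0.84, limma, adjusted p = 0.0211) and Ntsr1 (neurotensin receptor, 0.81, adjusted p = 0.0278) were higher, and Mchr1 (the receptor of melanin-concentrating hormone, -0.91, adjusted p = 0.0231) and Vipr1 (VIP receptor, -0.99, adjusted p = 0.0283) lower. Pmch and Mchr1 therefore differed between the drugs in opposite directions.

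Among 9 peptidase genes, Mme (neprilysin, which cleaves enkephalins and tachykinins) was lower with olanzapine, at 8.04 to 10.39, against 9.9 to 11.15 with risperidone, with a log2 fold change of -1.44 (limma, adjusted p = 0.0109), and it lay between 9.43 and 11.45 with vehicle. None of the 10 processing enzyme and granin genes passed, and 5 had an unadjusted p under 0.05, all higher with olanzapine, where 19.1% of all genes reached that level. Of 29 other precursor genes, 5 were called, all higher with olanzapine than with risperidone: Adcyap1 (PACAP, 1.16, limma, adjusted p = 0.0109), Hcrt (1.81, adjusted p = 0.0184), Pnoc (nociceptin, 0.62, adjusted p = 0.02), Tac2 (neurokinin B, 1.89, adjusted p = 0.0231) and Avp (vasopressin, 0.86, adjusted p = 0.0236). For Adcyap1, Hcrt, Tac2 and Avp, as for Ntsr1, all 8 risperidone mice lay in the dim range, so these fold changes rest on a level known only as a bound. Against its upper end the mean of the olanzapine group was higher by 1.17 for Hcrt, 1.08 for Tac2, 0.18 for Avp and 0.18 for Ntsr1 on the log2 scale. Olanzapine mice that were dim themselves entered these means as measured, 2 for Hcrt, 1 for Tac2, 2 for Avp and 3 for Ntsr1. The values are thus not strict lower limits. The olanzapine mean of Adcyap1, 6.33, was itself within the dim range. Hcrt and Avp also stand in the list of hypothalamic markers.

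In the pancreas, where delta cells of the islets make somatostatin and nerve fibres carry VIP, none of the 10 genes was called against vehicle with either drug, as was the case for 0% of all genes. Sst ran from 7.17 to 8.55 in the olanzapine group (median 7.94), from 7.81 to 8.66 in the risperidone group (median 8.12) and from 7.68 to 9.92 in the vehicle group (median 8.50). The groups overlapped, and the 3 highest values, at 9.11, 9.89 and 9.92, were vehicle males. All 3 group means lay within the 5th and 95th percentiles of the olfactory receptor genes in the pancreas, 5.45 and 9.06, so the fold changes of Sst are those of a gene close to background. Against vehicle the log2 fold change was -0.84 with olanzapine (standard error 0.30, limma, unadjusted p = 0.00863, adjusted p = 0.572) and -0.46 with risperidone (adjusted p = 0.999). Sst was the 1 precursor with an unadjusted p under 0.05 for olanzapine, where 8.24% of all genes reached that level. For risperidone Cartpt (-0.45) and Nts (0.69) did, 2 of 10, where 3.24% of all genes did.

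Pancreatic Vip also lay in the dim range. It ran from 5.72 to 6.91 in the olanzapine group (median 6.62), from 5.35 to 7.44 in the risperidone group (median 6.13) and from 5.55 to 6.95 in the vehicle group (median 6.36). Its log2 fold change against vehicle was 0.16 with olanzapine (95% interval -0.41 to 0.73) and -0.11 with risperidone (-0.68 to 0.46). In males the Sst means were 7.84 ± 0.65 with olanzapine, 8.33 ± 0.34 with risperidone and 9.23 ± 0.91 with vehicle (SD, n = 4 each). In females they were 7.83 ± 0.50, 8.11 ± 0.34 and 8.13 ± 0.45 in the same order (SD, n = 4 each). Neither gene tracked the mean of the islet, acinar, nerve, intestinal or lymphoid markers over 24 mice once adjusted over 10 tests. The strongest was Vip with the islet markers, at r = -0.498 (rho -0.484, permutation test, p = 0.013, adjusted p = 0.13), and Sst had an r of 0.381 with them (rho 0.299, permutation test, adjusted p = 0.326).

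Penk varied widely between pancreas samples, from 5.85 to 11.56 in the olanzapine group, from 5.71 to 10.63 in the risperidone group and from 5.32 to 11.6 in the vehicle group, which overlapped almost fully. Its group means, and those of Tac1, Pdyn, Npy, Pmch, Cartpt, Cck and Nts, lay between the 5th and 95th percentiles of the olfactory receptor genes, so that no precursor had a group mean above this range in the pancreas.

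In the gonadal fat, neither drug was followed by a called precursor, as for 0% of all genes in both comparisons with vehicle, but Penk differed between the sexes. It ran from 9.34 to 13.86 in males (median 11.90) and from 8.23 to 11.43 in females (median 9.66), a log2 fold change of 2.07 (standard error 0.46, limma, adjusted p = 0.00821), where 4.6% of all genes were called. Npy was at 12.9 to 16.99 in 4 males, namely olanzapine M9 and risperidone M4, M5 and M23, whereas it ran from 6.99 to 8.28 in the other 8 males and from 6.42 to 7.72 in females. The fold change of Npy between males and females was 2.63 and was not called (limma, adjusted p = 0.107). The sex difference of the drug effect on Penk was 2.86 for risperidone (limma, adjusted p = 0.248) and 2.61 for olanzapine (adjusted p = 0.999), neither of which passed. Over all genes, this sex difference was called in 9 upward and 1 downward for risperidone, and in 0 for olanzapine. In these 4 males Adam7, an epididymal gene, lay between 18.37 and 19.5, against 6.09 to 11.68 in the other males, and Prm2, a sperm protamine gene, between 10.52 and 17.15, against 6.94 to 12.1. Lcn5, another epididymal gene, ran from 14.75 to 19.41 in the 4 males, from 7.36 to 13.17 in the other males and from 6.78 to 9.34 in females. Some of the other 8 males were thus above the females too, among them vehicle M19 (Lcn5 13.17, Prm2 12.1), risperidone M24 (Adam7 11.68, Lcn5 10.54) and olanzapine M25 (Adam7 10.49, Lcn5 11.26), where females had at most 7.83 for Adam7 and 7.73 for Prm2. The 4 males with high Npy had Adipoq values of 14.13 to 15.72, below those of the other males, 17.57 to 18.67. Without these 4 mice, left out after their values were seen, Penk had a fold change of 1.41 between males and females (limma, adjusted p = 0.0929) and Npy of 0.34 (adjusted p = 0.296), so no precursor was called. The group means of the other 8 precursors lay within the 5th and 95th percentiles of olfactory receptor genes, 5.45 and 8.86. Those of Npy did so with vehicle (7.42) and olanzapine (8.40), but not with risperidone (9.62). Except for the 4 males, Npy was under 8.86 in every mouse. Its fold changes thus rest on levels known only as a bound, and that of 0.34 lies wholly between dim values.

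In the liver none of the 10 was called with either drug, where 0.0205% of all genes were called with olanzapine and 0.041% with risperidone. Most group means lay within the 5th and 95th percentiles of the olfactory receptor genes, 3.73 and 6.03. Cartpt (6.23 to 7.39 over 24 mice) lay above its upper end in every mouse. The group means of Sst, 6.26 to 6.42, were above it too, with single mice from 5.87 to 6.84. Cck (5.5 to 6.37) lay around it. Nts had an unadjusted p under 0.05 with olanzapine against vehicle, with a log2 fold change of -0.49 (limma, adjusted p = 0.719). It was the 1 precursor to reach that level, which 644 genes of the whole array reached upward and 635 downward. Liver Nts ran from 3.98 to 5.99 over 24 mice, under 6.03 in each, so this fold change lies wholly between dim values. Striatum and liver were labelled with one kit and pancreas and fat with another, so the levels of a gene were not tested between tissues.

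**Figure D5:**
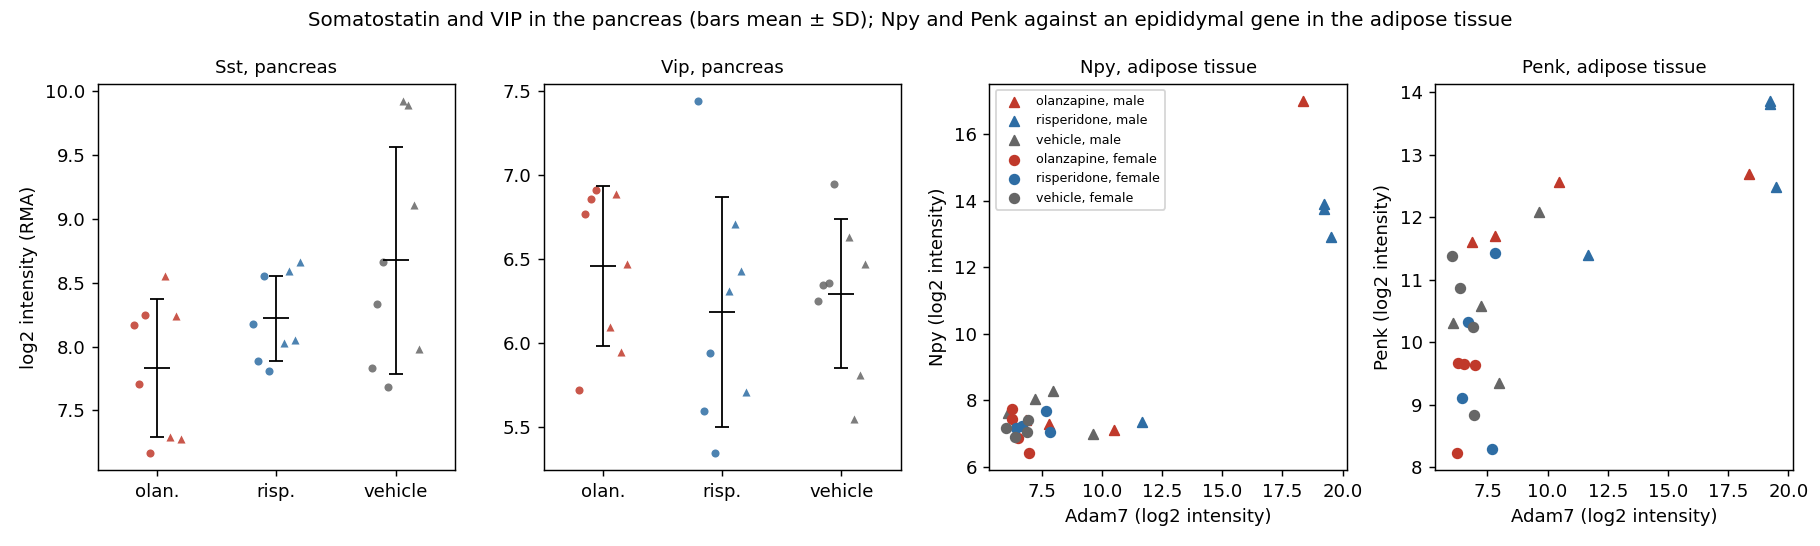
Log2 intensity of Sst and Vip in the pancreas by treatment (left panels, circles for females, triangles for males, bars mean ± SD of 8 mice), and of Npy and Penk in the adipose tissue against Adam7, an epididymal gene (right panels, 1 point a mouse). In the pancreas the 3 highest Sst values were vehicle males, and in the fat the 4 males with Npy at 12.9 or above had Adam7 at 18.37 to 19.5.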

How the data were processed

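The deposited values are log2 intensities with 2 decimals, which the authors obtained with RMA (background correction, then quantile normalization, then 1 value for each transcript cluster). Affymetrix Expression Console 1.4 is named in the submitters' processing notes. Whether arrays were normalized together or by tissue, and the genome build, are not given in the sources used here. Of 22206 clusters, 19572 carried 1 gene symbol; clusters of a gene were averaged, which left 19505 genes, without a filter on dim genes. Precision is limited by the number of arrays, which carry no read depth.

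Groups came from the sample labels. Each tissue was fitted alone with limma 3.58.1 (R 4.3.3) on the log2 values of 24 mice, with treatment and sex as terms and Benjamini-Hochberg adjustment over all genes. Marker means were compared by exact two-sided permutation tests, and correlations by 100000 permutations, in Python 3.11.15 with scipy 1.17.1. Values past Dixon's limit were sought in groups of 8. Alternatives covered the sex term, the mice in the fit, centring, quantile normalization, a filter on dim genes, single clusters, trended and robust variance, each sex alone, each mouse left out, and marker means as covariates. The scripts were tested on simulated data. Promoter sequences are RefSeq's (GRCm38.p6).

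All 10 precursors are named, with the 3 genes most like each, the list genes called, and up to 2 genes per pathway list and drug with the lowest p, of which those not called are mostly left out. The members and gene lists were chosen with earlier results of these data known. Some genes on the lists are not reported here.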

Additional observations from a re-analysis of the deposited data

Results flagged for a closer look

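In groups of 8 mice, 11 of 120 sets of values held a mouse set apart from the other 7 by more than Dixon's 95% limit, where chance gives about 6. In the striatum of the olanzapine group, F26 was the lowest mouse in Penk (15.6, the others 17.14 to 18.04), Tac1 (13.24, the others 14.89 to 15.78) and Pdyn (8.02, the others 9.16 to 10.17), and these 3 genes vary together. In the risperidone group, M24 had the highest striatal Pmch (7.11, the others 5.37 to 6.14) and F23 the highest Cartpt (10.09, the others 8.14 to 8.9).

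In the pancreas, Penk was high in olanzapine M27 (11.56, the others 5.85 to 8.39) and in risperidone F5 (10.63, the others 5.71 to 8). Nts was low in risperidone M4 (6.12, the others 6.75 to 7.24), and Cck was high in vehicle M1 (9.64, the others 6.34 to 7.09). In the adipose tissue, Npy was at 16.99 in olanzapine M9 (the others 6.42 to 7.72), 1 of the 4 males with high levels of epididymal genes. In the liver, Penk was at 4.86 in risperidone M23 (the others 3.56 to 4.17), within the range of dim probes.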

How the results depend on the processing

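Against vehicle, no setting other than leaving out a mouse gave a called precursor in any tissue. For olanzapine against risperidone in the striatum, the 3 called precursors became 1 with trended and robust variance, 1 in females alone, 0 in males alone, 0 with the projection neuron mean and 0 with the thalamic mean as a covariate (the thalamic and cortical covariates were chosen after seeing the data). Over all genes 4.86% were called, and this share was 4.85% with trended and robust variance, 0.487% in females alone, 0% in males alone, 0% with the projection neuron mean and 0.0154% with the thalamic mean. With the cortical mean 4 precursors were called, and 4.71% of all genes. Leaving out single mice gave 1 to 5, with 1 without risperidone F4, F6, M4, M23 or M24 or olanzapine F26, M25 or M26, and 5 without risperidone F23 or olanzapine M9, where 2.1% to 3.37% of all genes were called in the settings with 1, and 7.39% and 9.56% in those with 5. For olanzapine against vehicle it gave 0 to 2, with 2 without olanzapine M9 and 1 without vehicle M3. In these settings 1.04% and 0.595% of all genes were called, against 0% with all mice. In the fat, the 1 precursor called between males and females became 0 without the 4 males with high levels of epididymal genes. There 4.84% of all genes were called, against 4.6% with all mice. The interaction of sex and treatment gave 0 to 1 (1 without risperidone M24). In that setting the calls of all genes, added over both drugs, came to 7.74% of the number of genes. With quantile normalization Penk had -0.80 between the drugs (limma, adjusted p = 0.07).

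Directions turned as follows, in log2 fold changes that did not pass, except where Penk and Tac1 between the drugs were called without the covariate. With the projection neuron mean as a covariate, olanzapine against risperidone gave 0.17 for Penk, 0.076 for Tac1, 0.574 for Pdyn, 0.249 for Sst and -0.32 for Cck. Olanzapine against vehicle gave 0.329 for Penk, 0.135 for Tac1 and 0.344 for Pdyn, and risperidone against vehicle -0.229 for Pdyn and 0.112 for Cartpt. With the thalamic mean, the values were 0.343 for Sst between the drugs, 0.087 for Cck with olanzapine, and -0.05 for Pdyn, -0.09 for Npy, 0.07 for Cartpt and -0.246 for Vip with risperidone. With the cortical mean they were 0.169 for Cck with olanzapine and -0.067 for Vip with risperidone. In females alone they were 0.273 for Sst between the drugs, -0.17 for Vip with olanzapine, and -0.258 for Sst, -0.33 for Npy, 0.15 for Cartpt and -0.188 for Vip with risperidone. In males alone they were 0.42 for Cck with olanzapine and 0.175 for pancreatic Vip with risperidone. The cause was not tested.

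Leaving out single mice turned small values: with risperidone Pdyn (-0.025 to 0.179), Cartpt (-0.377 to 0.056), Vip (-0.082 to 0.201) and pancreatic Vip (-0.289 to 0.025), with olanzapine Pdyn (-0.313 to 0.01), Vip (-0.101 to 0.312) and Cck (-0.48 to 0.206), and between the drugs Vip (-0.157 to 0.255) and Cck (-0.06 to 0.63). Under the settings other than leaving out a mouse, 363 further single-gene values kept their direction and side of the threshold, 13 lost a call and 1 gained one. No paired analysis was possible because the treatment groups of a tissue hold different mice that share fewer than 2 numbers. Genes near the range of dim probes, such as Vip, are limited by signal over background.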
